A study of Homo sapiens with 17 samples.

Results

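The genes described here are 10 regulators of mitochondrial apoptosis of the BCL2 family, taken by symbol from a count table of 34496 genes in 10 RNA libraries: the pro-survival genes BCL2L1 and MCL1, the effectors BAX and BAK1, and the BH3-only genes BID, BIK, BMF, BCL2L11, PMAIP1 and BBC3. All 10 were found and all 10 passed the low-count filter. The cells were Cal27, grown from a squamous carcinoma of the tongue, and a derivative labelled as a knockout of NSD1, an enzyme that methylates lysine 36 of histone H3. DMSO-treated Cal27, the DMSO-treated knockout and the same knockout under EPZ-6438 had 2 libraries per group. EPZ-6438 (tazemetostat) inhibits EZH2, the methyltransferase for lysine 27 of the same histone. Without treatment there was 1 library apiece for Cal27, the knockout, SKN3 and BICR78, of which the last pair are further lines from head and neck cancers. The labels name a single knockout line, give no number of clones, dose or duration, and do not say whether replicates were separate cultures. P-values therefore reflect the scatter between these libraries alone, and that scatter may be technical. No parental cells with EPZ-6438 were analysed here.

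Proteins of the BCL2 family decide whether the outer mitochondrial membrane is opened to release cytochrome c, which starts the caspase cascade. Pro-survival members hold the effectors BAX and BAK1 in check. BH3-only proteins, named for the short domain with which they bind their relatives, occupy the pro-survival proteins or activate the effectors directly. In squamous carcinomas BCL-XL, the product of BCL2L1, and MCL1 are prominent pro-survival members.

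The smallest and largest total counts were 11745655 and 15509079 with DMSO or EPZ-6438, and 17587063 and 21738951 without treatment. NSD1 mRNA did not check the knockout label, being 165 and 164 counts per 1000000 reads (CPM) in the labelled knockout with DMSO against 113 and 114 CPM in Cal27. Counts per gene do not show whether a transcript is edited, so every direction below is that of the libraries labelled knockout. NSD1 was at 162 and 151 CPM with EPZ-6438. Without treatment it was at 149 CPM in Cal27, 203 CPM in the labelled knockout, 78.1 CPM in SKN3 and 0.468 CPM in BICR78. All 8 markers of squamous epithelium were detected in every library, with a summed level of 8718.5 and 8814.3 CPM in Cal27 with DMSO, 4000.3 and 4161 CPM in the labelled knockout with DMSO, and 2570.6 and 2590.6 CPM with EPZ-6438. Of 7 immune markers, whose summed level was 59.2 and 61.0, 106 and 112, and 123 and 134 CPM in the same groups, CD3E was at 0 in 5 of these 6 libraries and had 1 read in the other, and CD68 and CD14 made up most of the sum. The 6 fibroblast markers summed to 18.9 and 20.6, 7.52 and 9.96, and 21.4 and 25.2 CPM, and 4 endothelial markers to between 17.15 and 28.97 CPM. Among untreated libraries the squamous sum was 24972 CPM in Cal27 and 4501.6 CPM in the labelled knockout. Single squamous markers did not all follow the sum (edgeR, adjusted p below 0.05). With DMSO 6 of the 8 were lower and EPCAM higher in the labelled knockout. With EPZ-6438, 6 were lower and KRT6A and KRT17 higher. Of all tested genes 19.5% and 23.9% were lower in these steps, and 16.4% and 25.6% higher. The part of the markers of any cell type in the results was not tested.

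Among the 10 members the largest tested change was that of BMF, a BH3-only gene that binds pro-survival proteins after loss of cell attachment and other stresses. BMF was at 4.11 and 3.65 CPM in Cal27 with DMSO and at 3.11 and 4.09 CPM in the labelled knockout with DMSO. With EPZ-6438 it stood at 24.1 and 21.1 CPM. The parental and knockout libraries overlapped, and both treated libraries lay far above all 4 of them. The increase with EPZ-6438 was 6.22-fold (log2 2.64 ± 0.16, SE; edgeR, adjusted p = 4.5e-10), and the treated knockout exceeded parental cells by 2.52 ± 0.15 (log2, SE; edgeR, adjusted p = 5.2e-10). The untreated labelled knockout, however, had 13.8 CPM, above the same cells with DMSO and below both treated libraries, while untreated Cal27 had 6.33 CPM. The 6.22-fold rise is thus relative to the DMSO libraries, and the treated libraries were not tested against untreated cells. Because BMF moved most of the members, its 2 RefSeq start sites (GRCh38.p14, minus strand) are shown by the 250 bases upstream of each, with every CG dinucleotide in capitals.
BMF, chr15:40108880-40109129: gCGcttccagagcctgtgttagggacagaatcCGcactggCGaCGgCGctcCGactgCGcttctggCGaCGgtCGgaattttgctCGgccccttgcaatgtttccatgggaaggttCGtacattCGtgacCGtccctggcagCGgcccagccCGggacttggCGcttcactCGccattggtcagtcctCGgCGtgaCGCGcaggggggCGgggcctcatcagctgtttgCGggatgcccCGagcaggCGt
BMF, chr15:40106967-40107216: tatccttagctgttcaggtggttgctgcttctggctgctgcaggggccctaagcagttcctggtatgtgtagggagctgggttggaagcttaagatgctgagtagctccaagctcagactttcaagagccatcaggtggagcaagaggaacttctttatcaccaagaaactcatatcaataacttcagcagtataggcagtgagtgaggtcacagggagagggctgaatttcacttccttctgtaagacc
The first stretch, before the outer start of the gene, holds 26 CG dinucleotides, a number reached by 19.6% of 35116 such upstream stretches of all genes, whose median is 11. The second holds 0. Reads per gene do not tell which start was used.

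**Figure D1:**
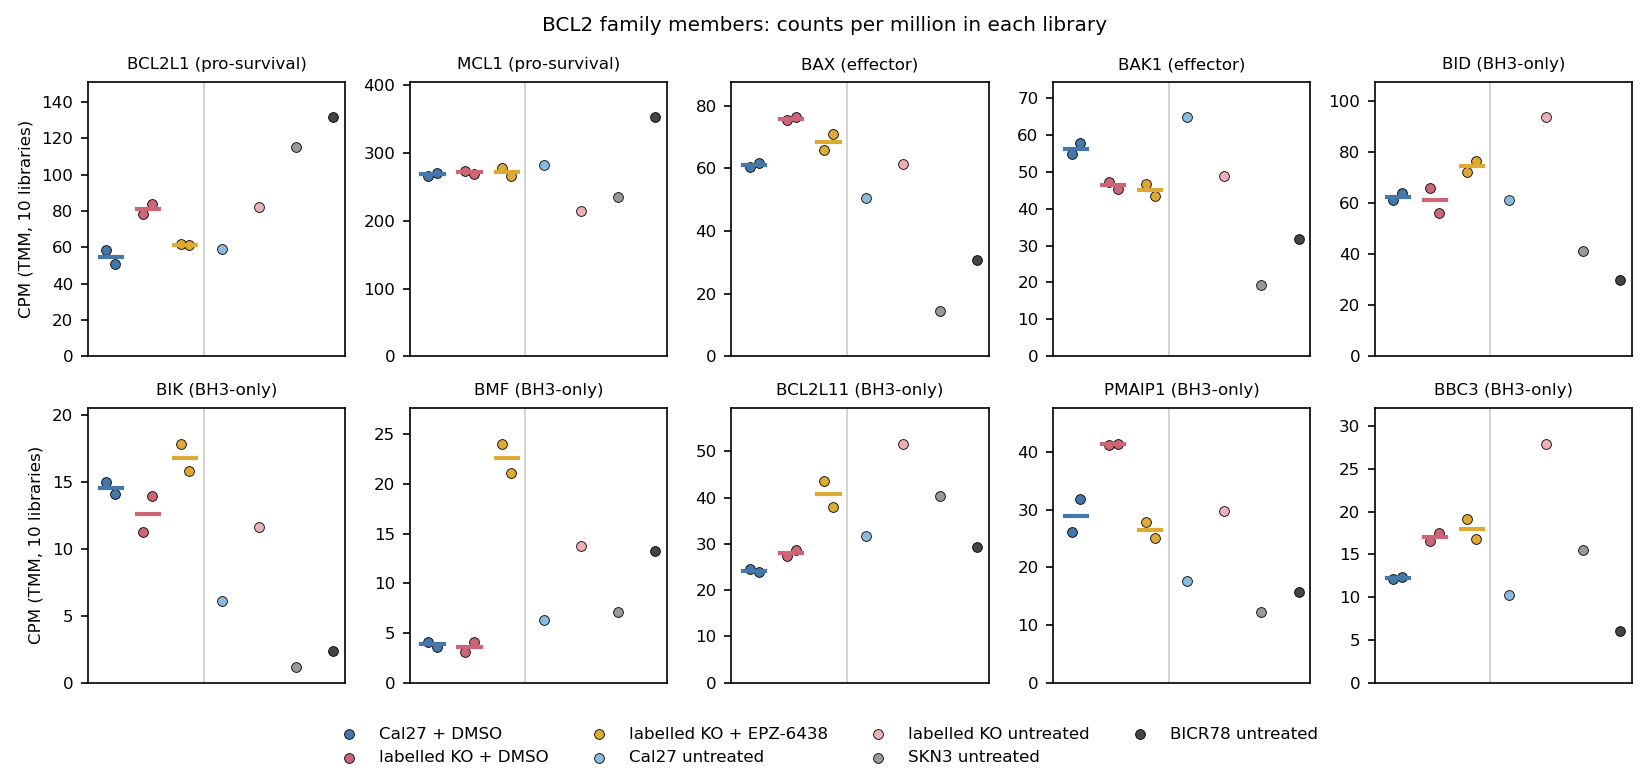
Counts per 1000000 reads (CPM, TMM scaling over 10 libraries, linear axis from 0) of the 10 genes; each point is 1 library and horizontal bars are means of 2 libraries. Left of the grey line are the DMSO and EPZ-6438 libraries and right of it the untreated ones; BMF stands at 24.1 and 21.1 CPM with EPZ-6438 and below 5 CPM in the 4 DMSO libraries.

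BCL2L11, which encodes BIM, a BH3-only protein that binds all major pro-survival members, followed the same direction at a smaller size. It was at 24.5 and 23.9 CPM in Cal27 with DMSO, at 27.4 and 28.6 CPM in the labelled knockout and at 43.6 and 38.0 CPM with EPZ-6438. The 3 groups did not overlap, but the step between the DMSO groups did not pass the test (log2 0.20 ± 0.09, SE; edgeR, adjusted p = 0.081). It did so with scaling by library size alone (adjusted p = 0.029). With the inhibitor BCL2L11 rose by 0.53 ± 0.08 (log2, SE; edgeR, adjusted p = 3.5e-05). The untreated labelled knockout, however, had 51.6 CPM, above both treated libraries, while untreated Cal27 had 31.8 CPM. This rise is thus also relative to the DMSO libraries, and the treated libraries were not tested against untreated cells. The gene is a known target of FOXO transcription factors, and its upstream stretch (plus strand, same build) is shown for the FOXO core GTAAACA, here in capitals.
BCL2L11, chr2:111120664-111120913: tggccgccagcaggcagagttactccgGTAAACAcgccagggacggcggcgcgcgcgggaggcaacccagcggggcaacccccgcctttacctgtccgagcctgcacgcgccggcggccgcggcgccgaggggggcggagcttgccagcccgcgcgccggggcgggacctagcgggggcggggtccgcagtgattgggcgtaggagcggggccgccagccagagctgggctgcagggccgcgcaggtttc
The match begins 223 bases before the start. This motif, searched as GTAAACA and TGTTTAC, occurred in 2.98% of all stretches and in no other stretch of the 8 members that have one. It is a match of letters and not a measured site.

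PMAIP1 and BCL2L1 moved the opposite way with EPZ-6438, to a lower level. With DMSO both were higher in the labelled knockout than in Cal27. PMAIP1 encodes NOXA, a BH3-only protein that binds MCL1 and promotes its degradation. It was at 26.2 and 31.8 CPM in Cal27 with DMSO, 41.2 and 41.4 CPM in the labelled knockout, and 27.9 and 25.04 CPM with EPZ-6438. The knockout libraries lay above all others of this set, while the treated libraries overlapped those of parental cells. PMAIP1 rose by 0.50 ± 0.09 in the labelled knockout (log2, SE; edgeR, adjusted p = 2.3e-04) and fell by 0.65 ± 0.09 with the inhibitor (adjusted p = 1.2e-05). BCL2L1 was at 58.7 and 50.8, 78.2 and 83.9, and 61.8 and 61.3 CPM in the same order of groups. Its change was 0.56 ± 0.06 in the labelled knockout (log2, SE; edgeR, adjusted p = 3.1e-06) and -0.40 ± 0.06 with EPZ-6438 (adjusted p = 5.6e-05). In the untreated labelled knockout, however, PMAIP1 was at 29.8 CPM, far below the same cells with DMSO and just above both treated libraries. The fall of PMAIP1 is thus also relative to the DMSO libraries, and the treated libraries were not tested against untreated cells. BCL2L1 was at 82.1 CPM in the untreated labelled knockout, between the DMSO libraries of these cells. Against parental cells the treated knockout differed by 0.16 ± 0.07 for BCL2L1 and by -0.15 ± 0.09 for PMAIP1 (log2, SE), neither past the test (edgeR, adjusted p = 0.055 and 0.21). Without replicate 1 of Cal27 with DMSO both differences passed, at 0.27 and -0.28 (adjusted p = 0.0073 and 0.031). The BCL2L1 difference also passed by library size alone, with no low-count filter, with the stricter filter and with a robust estimate of the spread (edgeR, adjusted p = 0.013, 0.020, 0.033 and 0.034). These values therefore do not show a return to the parental level. BCL2L1 overlaps an annotated antisense RNA, BCL2L1-AS1, that has no row in the table, and the strand setting of the counting is not given.

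MCL1, which guards against BAK1 and is turned over quickly as a protein, stayed within a narrow band. It was at 266 and 271 CPM in Cal27 with DMSO, 273 and 269 CPM in the labelled knockout and 278 and 265 CPM with EPZ-6438. The groups overlapped, and the fitted differences were 0.00 ± 0.03 in the labelled knockout, 0.00 ± 0.03 with the inhibitor and 0.01 ± 0.03 between treated and parental cells (log2, SE; edgeR, adjusted p = 0.93, 0.96 and 0.88).

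Because PMAIP1 and MCL1 act on each other as proteins, the ratio of their counts was taken within each library, where no scaling enters. There were 0.0984 and 0.117 PMAIP1 reads per MCL1 read in Cal27 with DMSO, 0.151 and 0.154 in the labelled knockout, and 0.100 and 0.0943 with EPZ-6438. The knockout libraries were highest and the others overlapped. For BCL2L11 the ratio to MCL1 was 0.0920 and 0.0882, 0.100 and 0.106, and 0.157 and 0.143 in the same order. Among these 6 libraries it was highest with EPZ-6438. The untreated labelled knockout, at 0.240, and SKN3, at 0.173, lay above both treated libraries. Untreated Cal27 and BICR78 were at 0.113 and 0.0832. These ratios are not corrected for gene length and are compared only between libraries. With 1 or 2 libraries a group they were not tested.

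The effectors differed from each other. BAX, which moves from the cytosol to mitochondria, was at 60.5 and 61.7 CPM in Cal27 with DMSO and at 75.3 and 76.3 CPM in the labelled knockout, a rise of 0.30 ± 0.05 (log2, SE; edgeR, adjusted p = 2.9e-04). BAK1, which resides in the mitochondrial membrane, went from 54.7 and 57.8 to 47.2 and 45.4 CPM, a fall of 0.29 ± 0.06 (log2, SE; edgeR, adjusted p = 0.0016). With EPZ-6438, BAX stood at 66.0 and 71.1 CPM and BAK1 at 46.8 and 43.3 CPM. The step for BAX was -0.14 ± 0.05 (log2, SE; edgeR, adjusted p = 0.037). It was lost with DESeq2, with a stricter filter, and without replicate 1 or 2 of the knockout with DMSO or replicate 1 with EPZ-6438 (adjusted p between 0.069 and 0.22). That for BAK1 did not pass (-0.04 ± 0.07; adjusted p = 0.62). In the untreated labelled knockout BAX was at 61.3 CPM, below both treated libraries, so its fall is also relative to the DMSO libraries. Treated cells lay below parental cells for BAK1 (-0.33 ± 0.06; adjusted p = 2.8e-04). The BAX difference of 0.16 ± 0.05 (adjusted p = 0.019) was lost with DESeq2 and without replicate 1 or 2 of Cal27 with DMSO or replicate 2 with EPZ-6438 (adjusted p between 0.053 and 0.23). The ratio of BAX to BCL2L1 reads was 1.03 and 1.21 in Cal27 with DMSO, 0.963 and 0.909 in the labelled knockout, and 1.07 and 1.16 with EPZ-6438.

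The 250 bases upstream of BAX (plus strand, same build) are shown because they hold the E-box CACGTG, in capitals, 4 times, beginning 138, 93, 45 and 14 bases before the start.
BAX, chr19:48954625-48954874: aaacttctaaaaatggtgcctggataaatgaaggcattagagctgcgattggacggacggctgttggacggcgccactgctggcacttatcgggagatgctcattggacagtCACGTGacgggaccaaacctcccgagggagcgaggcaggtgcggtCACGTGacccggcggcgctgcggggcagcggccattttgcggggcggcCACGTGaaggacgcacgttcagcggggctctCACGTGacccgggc
At least 1 such E-box occurred in 6.34% of all upstream stretches, and 4 or more in 5 of 35116. Factors such as MYC and USF bind this sequence, and the match is again one of letters. Of the other members with a stretch, BBC3 held 1 E-box, BID held 1 that lies in both of 2 overlapping stretches, and BBC3 also held an AP-1 site (TGANTCA, in 6.57% of stretches). The interferon-response core, found in 3.02% of all stretches on either strand, was in none of the members'. MCL1 and BIK had no entry.

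Among the remaining BH3-only genes, BBC3 was the one that differed between parental and labelled knockout cells. BBC3 encodes PUMA, a classical target of p53. It was at 12.1 and 12.4 CPM in Cal27 with DMSO, 16.5 and 17.5 CPM in the labelled knockout and 19.1 and 16.7 CPM with EPZ-6438. The DMSO groups did not overlap, and the knockout and treated groups did. The gene rose by 0.47 ± 0.11 in the labelled knockout (log2, SE; edgeR, adjusted p = 0.0036) and did not pass the test with the inhibitor (0.07 ± 0.11; adjusted p = 0.62).

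BID, which carries the death-receptor signal to mitochondria once caspase-8 has cut it, was at 61.2 and 63.8 CPM in Cal27 with DMSO, 65.9 and 56.2 CPM in the labelled knockout and 72.2 and 76.5 CPM with EPZ-6438. It rose by 0.29 ± 0.07 with EPZ-6438 (log2, SE; edgeR, adjusted p = 0.0017), a call lost without replicate 2 of the knockout with DMSO (adjusted p = 0.062). Its difference of 0.25 ± 0.07 between treated and parental cells (adjusted p = 0.0051) was lost without replicate 2 with EPZ-6438 (adjusted p = 0.071). The untreated labelled knockout had 93.6 CPM of BID, above both treated libraries, while untreated Cal27 had 61.1 CPM. The rise of BID is thus also relative to the DMSO libraries, and the treated libraries were not tested against untreated cells. BIK, a BH3-only protein of the endoplasmic reticulum, was at 15.0 and 14.1, 11.3 and 14.0, and 17.8 and 15.8 CPM in the same DMSO and EPZ-6438 groups. It rose by 0.40 ± 0.12 with the inhibitor (log2, SE; edgeR, adjusted p = 0.012). That call was lost with DESeq2 (adjusted p = 0.064) and without replicate 1 of the knockout with DMSO (0.15) or replicate 1 with EPZ-6438 (0.093).

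In all, 4 of the 10 genes were higher and 1 lower in the labelled knockout, against 16.4% and 19.5% of all 13241 tested genes (35.9% in either direction). By library size alone all genes split into 2978 higher and 2088 lower, in place of 2169 and 2580. With EPZ-6438, 4 were higher and 3 lower, against 25.6% and 23.9% of all genes (49.6% in either direction). In the treated knockout against parental cells, 5 were higher and 1 lower, against 26.1% and 25.9% (52.0% in either direction). The median log2 change of the 10 was 0.10, 0.04 and 0.18 in this order, against -0.01, 0.00 and 0.00 over all tested genes. Each pair of these comparisons shares a group of libraries, so they are not independent. Tested against a log2 fold of 0.5 in place of 0, no member was called in the labelled knockout, BMF alone with the inhibitor, and BMF and BCL2L11 against parental cells. With RNA from whole cultures, fewer cells that express a gene and less RNA per cell cannot be told apart.

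**Figure D2:**
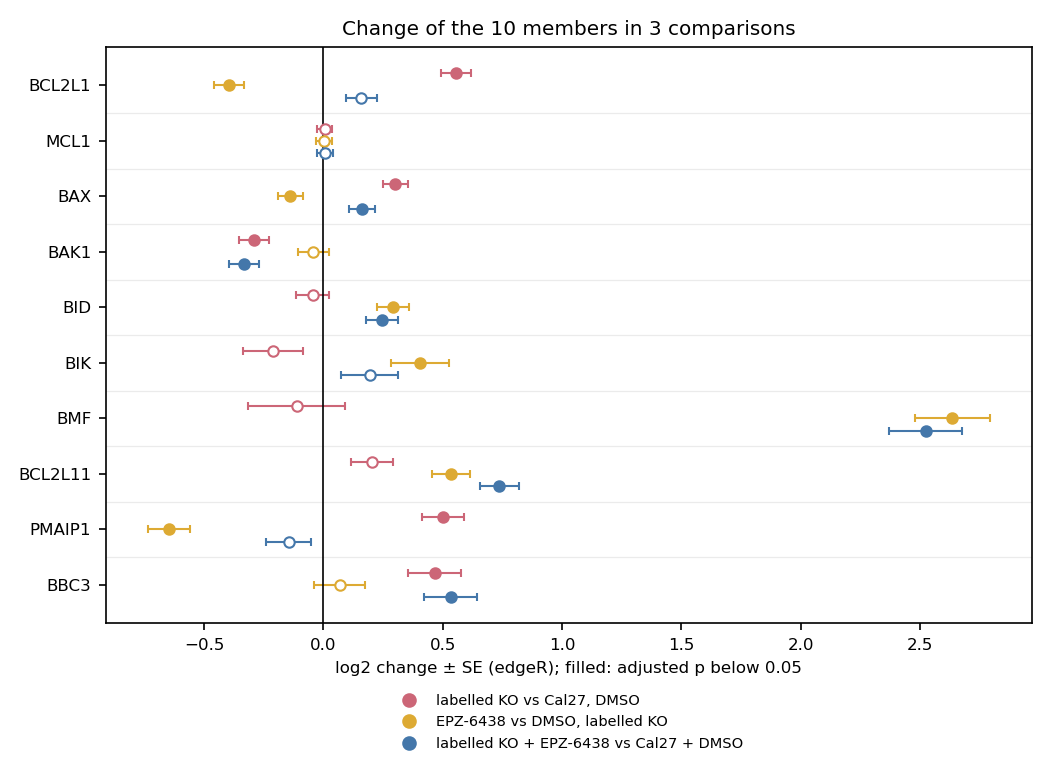
Log2 change with its standard error (edgeR, 6 libraries) of the 10 genes in 3 comparisons; filled points passed an adjusted p of 0.05. BMF reaches 2.64 with EPZ-6438, MCL1 lies near 0 throughout, and BCL2L1 and PMAIP1 stand right of 0 in the labelled knockout and left of it with the inhibitor.

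The untreated libraries were described without a test, since each group has 1. The labelled knockout exceeded untreated Cal27 in 8 of 10 genes, with a median log2 difference of 0.66 against -0.01 over 15688 genes. At the 2-fold limit 2 members were higher and 0 lower, where 6.78% and 10.7% of these genes were. BBC3 was at 27.9 CPM against 10.2 CPM, a ratio of 2.73 (95% interval 2.33 to 3.20, counting error only). BMF was at 13.8 CPM against 6.33 CPM (ratio 2.17, 1.77 to 2.69). BCL2L1 (1.39), BAX (1.21), PMAIP1 (1.69) and BBC3 had ratios above 1 and BAK1 (0.755) a ratio below 1, the directions that passed the test with DMSO. MCL1 was lower, at 215 CPM against 282 CPM (ratio 0.761, 0.732 to 0.791), where the DMSO libraries overlapped. BID had 93.6 CPM against 61.1 CPM (ratio 1.53, 1.43 to 1.65). Levels also differed between the sets for the same cells: BMF was at 13.8 CPM in the untreated labelled knockout and at 3.11 and 4.09 CPM with DMSO, and BIK at 6.09 CPM in untreated Cal27 and at 15.0 and 14.1 CPM with DMSO. DMSO and any difference between the sets in handling cannot be told apart.

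SKN3 and BICR78 shared low effector levels. BAX was at 14.3 CPM in SKN3 and 30.9 CPM in BICR78 against 50.5 CPM in untreated Cal27, ratios of 0.284 (95% interval 0.247 to 0.324) and 0.611 (0.552 to 0.676). BAK1 was at 19.2 and 31.7 CPM against 64.7 CPM (0.298 and 0.490). BCL2L1 was at 115 and 132 CPM against 59.1 CPM, ratios of 1.95 (1.82 to 2.09) and 2.23 (2.08 to 2.38), so that both lines had less effector and more BCL2L1 message than any Cal27 library. There were accordingly 0.124 and 0.235 BAX reads per BCL2L1 read in these lines, against 0.854 in untreated Cal27 and 0.746 in the untreated labelled knockout. BIK was lowest in SKN3, at 1.21 CPM from 23 reads, and next in BICR78, at 2.34 CPM from 45 reads. BMF was level with Cal27 in SKN3 within counting error (ratio 1.13, 0.885 to 1.45) and higher in BICR78 (2.10, 1.70 to 2.61). BCL2L11 had 31.8 CPM in untreated Cal27, 51.6 CPM in the labelled knockout, 40.4 CPM in SKN3 and 29.3 CPM in BICR78. PMAIP1 had 17.7, 29.8, 12.3 and 15.8 CPM in the same order. For both genes the interval of the ratio of BICR78 to Cal27 included 1 (0.823 to 1.03 for BCL2L11 and 0.767 to 1.04 for PMAIP1). BBC3 was at 15.6 CPM in SKN3 and 6.08 CPM in BICR78, on either side of Cal27, and MCL1 likewise at 234 and 352 CPM. At a 2-fold limit 3 members were lower and 0 higher in SKN3, where 19.4% and 22.7% of all genes were. In BICR78, 3 were lower and 2 higher, where 10.5% and 19.5% of all genes were.

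**Figure D3:**
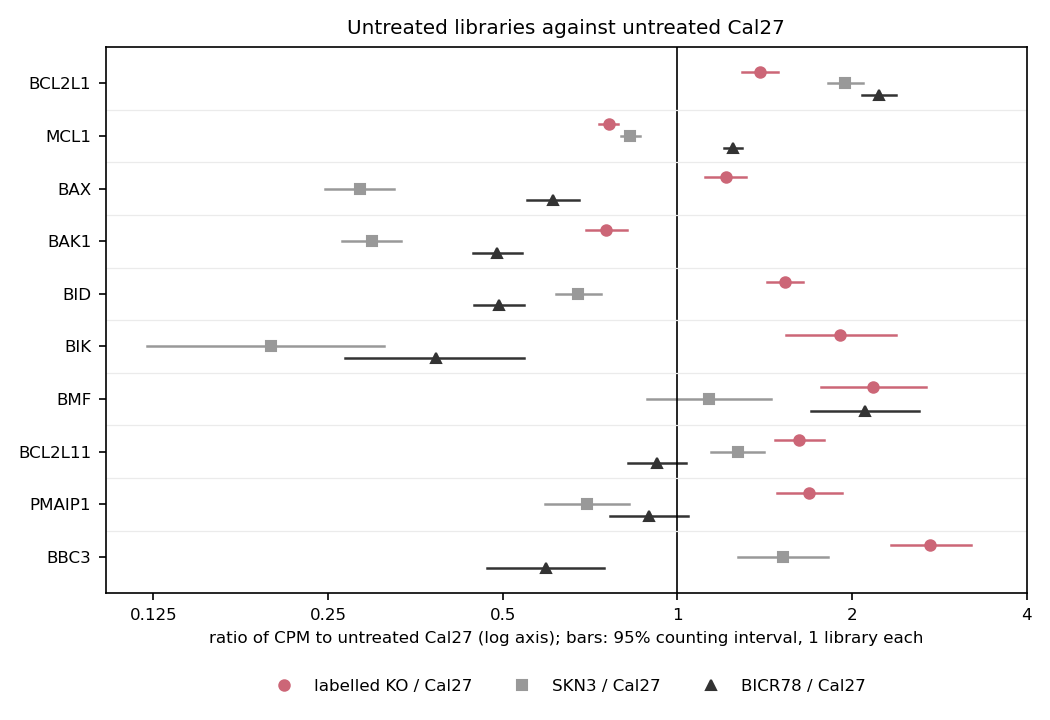
Ratio of CPM to untreated Cal27 (log axis) for the untreated labelled knockout, SKN3 and BICR78, with 95% counting intervals; each ratio compares 2 single libraries. BAX lies at 0.284 in SKN3 and 0.611 in BICR78, and BCL2L1 lies right of 1 in all 3.

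Over the 10 libraries the widest ranges of log2 CPM were those of BIK (3.75), BMF (2.90) and BAX (2.40). The genes closest to BIK in profile were LYRM2, CASP4 and SLC30A9 (Pearson r of 0.994, 0.991 and 0.988 among 10968 genes). BMF was closest to SPINT1, MUC20 and NEO1 (0.945, 0.935 and 0.929), and BAX to TPD52L2, GNPDA1 and PLS1 (0.997, 0.994 and 0.994). These are descriptions over libraries that share cell lines and the division into 2 sets.

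Of 13 further genes of the family, 11 were tested, of which 1 rose and 0 fell in the labelled knockout, and 6 rose and 4 fell with EPZ-6438. Of all tested genes 16.4% rose and 19.5% fell in the labelled knockout, and 25.6% and 23.9% with EPZ-6438. BCL2A1, a pro-survival gene induced by NF-kappaB, was at 1.54 and 1.27 CPM in Cal27 with DMSO, 2.80 and 2.85 CPM in the labelled knockout and 10.1 and 12.4 CPM with EPZ-6438. No group overlapped another. It rose by 0.99 ± 0.27 in the labelled knockout and by 1.99 ± 0.20 with EPZ-6438 (log2, SE; edgeR, adjusted p = 0.0091 and 3.9e-07). BCL2L2, which encodes the pro-survival protein BCL-W, rose by 0.33 ± 0.07 with the inhibitor (adjusted p = 6.3e-04), but overlaps the read-through gene BCL2L2-PABPN1 and is uncertain. BCL2 itself was scarce, between 1.64 and 4.31 CPM in the 6 libraries, and did not pass with EPZ-6438 (0.61 ± 0.28; edgeR, adjusted p = 0.078). With EPZ-6438 BOK, a relative of the effectors, fell by 0.64 ± 0.07 and BAD, a BH3-only protein regulated by growth-factor kinases, by 0.32 ± 0.06 (log2, SE; edgeR, adjusted p = 2.0e-06 and 1.5e-04). In the labelled knockout BOK had means of 64.3 CPM with DMSO and 40.9 CPM with EPZ-6438, and 28.0 CPM in the untreated library. The fall of BOK is thus also relative to the DMSO libraries. HRK, a BH3-only gene, rested on 0 to 14 reads per library, although it was called higher with EPZ-6438 (edgeR, adjusted p = 0.018).

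**Figure D4:**
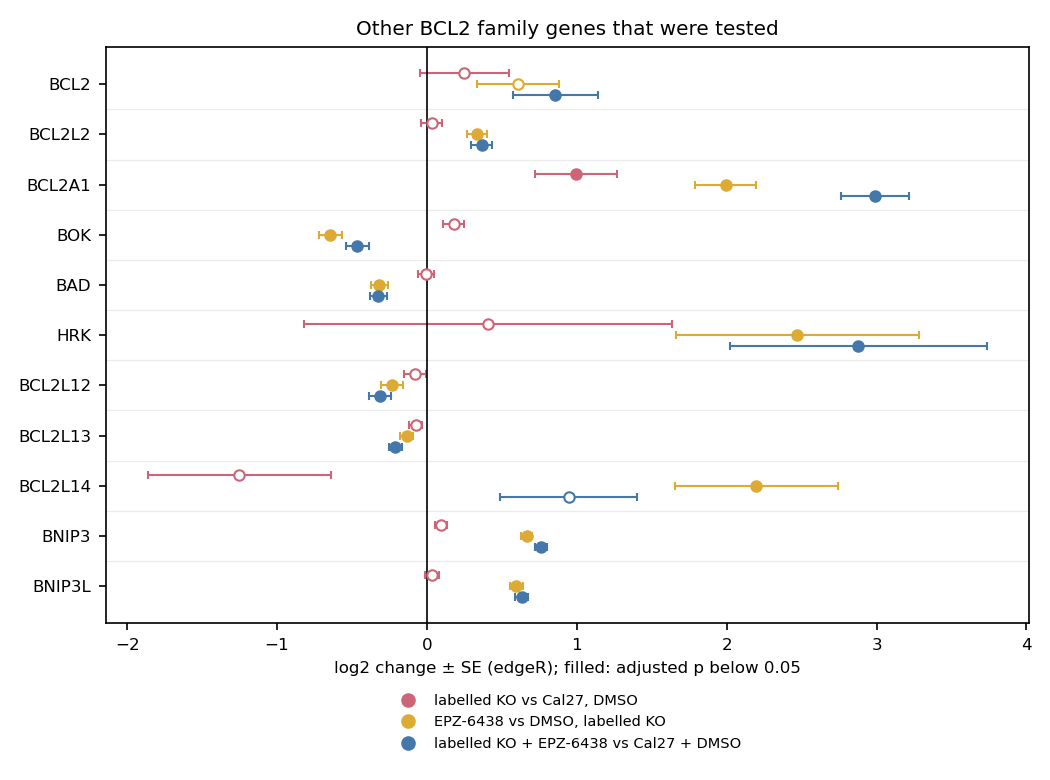
Log2 change with its standard error (edgeR) of the 11 other tested genes of the family in the same 3 comparisons; filled points passed an adjusted p of 0.05. BCL2A1 reaches 1.99 with EPZ-6438, and the wide bars of HRK come from few reads. BOK and BAD lie left of 0 in both comparisons that include EPZ-6438, and at 0.18 and -0.01 in the labelled knockout.

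Downstream of the family, of 9 genes of mitochondrial release 2 rose and 4 fell in the labelled knockout, where 16.4% and 19.5% of all tested genes did. With EPZ-6438, 1 rose and 6 fell, against 25.6% and 23.9% of all genes. The medians were -0.10 and -0.21 (log2), against -0.01 and 0.00 over all tested genes. The same shares of all genes stand behind the counts of the lists that follow. CYCS, which encodes cytochrome c, fell by 0.38 ± 0.03 in the labelled knockout and rose by 0.15 ± 0.03 with the inhibitor (log2, SE; edgeR, adjusted p = 6.8e-09 and 2.2e-04). APAF1, the scaffold of the apoptosome, rose by 0.45 ± 0.07 in the labelled knockout (adjusted p = 6.7e-05). The channel gene VDAC2, whose product holds BAK1 in the membrane, fell by 0.33 ± 0.03 (adjusted p = 2.9e-07). Among the apoptotic caspases, CASP10, an initiator of the death-receptor pathway, rose by 0.50 ± 0.07 with EPZ-6438 (log2, SE; edgeR, adjusted p = 2.3e-05). Of 6 tested inhibitors of apoptosis, 2 rose and 2 fell in the labelled knockout, and 1 rose and 1 fell with EPZ-6438. Those were BIRC3, a target of NF-kappaB, by 0.62 ± 0.06, and BIRC5 (survivin), by -0.20 ± 0.04 (log2, SE; edgeR, adjusted p = 1.9e-07 and 3.6e-04). In the labelled knockout BIRC3 and BIRC5 were the 2 that fell, by -0.28 ± 0.06 and -0.12 ± 0.04 (log2, SE; edgeR, adjusted p = 0.0016 and 0.021). XIAP and BIRC6 rose there.

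Upstream, transcription factors known to control BH3-only genes moved both ways. Of 11, 3 rose and 3 fell in the labelled knockout, and 4 rose and 4 fell with EPZ-6438. FOXO1 went from 17.2 to 39.9 CPM with EPZ-6438 (group means; log2 1.22 ± 0.08, SE; edgeR, adjusted p = 3.5e-09). In the labelled knockout FOXO1 fell by 0.37 ± 0.09 and FOXO3 rose by 0.27 ± 0.05 (log2, SE; edgeR, adjusted p = 0.0050 and 8.1e-04). Without treatment FOXO1 was at 5.58 CPM in the labelled knockout and 30.4 CPM in Cal27, in 1 library each. A relation of FOXO1 to BCL2L11 was not tested. TP73, a relative of p53, fell by 1.26 ± 0.08 in the labelled knockout (adjusted p = 2.8e-09), and TP63, the squamous relative, by 0.37 ± 0.03 (adjusted p = 3.8e-08). Targets of p53 outside the family had 7 of 24 higher and 6 lower in the labelled knockout, and 6 higher and 4 lower with EPZ-6438, with medians of 0.03 and 0.01 (log2). GDF15 rose in both steps, by 0.90 ± 0.07 and 1.65 ± 0.05, while CDKN1A (p21) fell by 0.54 ± 0.08 and then rose by 0.98 ± 0.07 (log2, SE; edgeR, adjusted p = 3.3e-08, 1.3e-13, 3.4e-05 and 1.0e-08). Of a further list of 12 genes, most belong to the integrated stress response, which controls PMAIP1 and BBC3 through ATF4 and CHOP. HSPA5, XBP1 and ERN1 in it are genes of the wider unfolded protein response. In this list 3 rose and 1 fell in the labelled knockout, and 3 (ATF3, HSPA5 and ERN1) rose and 6 fell with EPZ-6438. ASNS fell by 0.81 ± 0.05 and TRIB3 by 0.84 ± 0.06 with the inhibitor, and ATF4 by 0.29 ± 0.03 (log2, SE; edgeR, adjusted p = 5.4e-10, 4.3e-09 and 2.2e-07). ATF3, also of this list, rose by 0.81 ± 0.08 (adjusted p = 3.2e-07). Of 8 tested genes that govern turnover of the MCL1 and NOXA proteins, 3 rose and 0 fell in each step (edgeR). Before adjustment, at the 0.05 level, 1 was lower in the labelled knockout (USP9X, log2 -0.09) and 0 with EPZ-6438. HUWE1, a ubiquitin ligase for MCL1, rose by 0.36 ± 0.03 in the labelled knockout (edgeR, adjusted p = 2.5e-08), and USP9X, which removes ubiquitin from MCL1, by 0.16 ± 0.04 with EPZ-6438 (adjusted p = 0.0051). ATF3, ATF4, DDIT3 and SESN2 each stand in more than 1 of these lists, and TP63 is also a squamous marker.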

How the data were processed

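RNA was sequenced in 10 libraries. Per the labels' protocols, RNA was taken up in TRIzol and ribosomal RNA was depleted. The submitters' processing notes list featureCounts 1.6.1, HISAT2 2.1.0, Picard 2.23.1, CASAVA 1.7 and the build hg38. How reads were assigned to strands, and with which annotation, is not given in the sources used here. Raw counts per gene were deposited by the authors and taken unchanged. The 7 CUT&Tag samples were not analysed here.

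One model in edgeR 4.0.16, run under R 4.3.3, took the 6 DMSO and EPZ-6438 libraries and 13241 genes kept by its default filter, with TMM scaling, group as the only term, the quasi-likelihood F test and Benjamini-Hochberg adjustment over all tested genes (called below 0.05). The code was tested on simulated data. Levels are CPM with TMM scaling over all 10 libraries. Single-library differences use a prior count of 2, genes with at least 10 reads in an untreated library, and exact 95% intervals for counting error. DESeq2 1.42.0 was an alternative.

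The members, lists, tests and the rule for named genes were chosen with earlier results of these data known. The rule took all members, NSD1, 6 relatives, the 2 called genes of lowest adjusted p per further list, direction and comparison, and the 3 genes closest in profile (mean of at least 5 CPM) to the 3 members of widest range. BCL2L2-PABPN1 and the markers lie outside it. Some results are not reported here because they concern withheld items. Promoter motifs were chosen after the values were seen. Symbols, positions and upstream sequences are from RefSeq, GRCh38.p14, with an entry for 8 of the 10 members.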

Additional observations from a re-analysis of the deposited data

Results flagged for a closer look

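BIK differed in direction between the DMSO and the untreated libraries. Both labelled knockout libraries with DMSO (11.3 and 14.0 CPM) lay below both of Cal27 (15.0 and 14.1 CPM), although the change of -0.21 ± 0.13 (log2, SE) did not pass the test (edgeR, adjusted p = 0.21). Without DMSO the labelled knockout had 11.6 CPM against 6.09 CPM in Cal27, a log2 difference of 0.92, with an interval of the ratio (1.54 to 2.38) that lies above 1. It covers counting error only. The difference between the sets was not tested, as the untreated set has 1 library per group.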

How the results depend on the processing

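Over the alternatives of the tests, 404 member results kept direction and side of the threshold, 29 lost their call, 7 gained it and 20, none of them called in either fit, changed sign. Against a log2 fold of 0.5 the counts of members higher and lower were 0 and 0 in the labelled knockout, 1 and 0 with EPZ-6438, and 2 and 0 for treated against parental cells; over all genes they were 248 and 618 (2169 and 2580 when tested against 0), 1272 and 204 (3393 and 3171), and 1053 and 424 (3456 and 3428). Adding the untreated pair gave 1318 and 1595 genes in the labelled knockout. Leaving out each library in turn gave 4 to 4 members higher and 1 to 1 lower in the labelled knockout, 3 to 4 and 2 to 3 with EPZ-6438, and 3 to 5 (3 without replicate 2 with EPZ-6438) and 1 to 2 (2 without replicate 1 of Cal27 with DMSO) for treated against parental cells. With the replicate number as a block the counts were 4 and 1, 4 and 3, and 5 and 1, as without it. The labels give no basis for pairing, and deviations of same-numbered libraries correlated at 0.014, -0.044 and 0.003.

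Sign changes were as follows (log2). In the labelled knockout MCL1 became -0.0055 with a stricter filter and -0.13 with the untreated pair added, and ranged from -0.0061 to 0.0187 when each library was left out in turn. BID became 0.0055 by library size alone and 0.19 with the untreated pair, and ranged from -0.1647 to 0.072. BIK became 0.17 with the untreated pair. BMF became 0.42 with it and ranged from -0.3227 to 0.0644. With EPZ-6438, MCL1 became -5e-04 with DESeq2-type size factors and -1e-04 with DESeq2, and ranged from -0.0308 to 0.0352, BAK1 from -0.0945 to 0.0148 and BBC3 from -0.0249 to 0.1657. For treated against parental cells MCL1 ranged from -0.021 to 0.0406. The difference in log2 ratio of BAX to BCL2L1 there, -0.0073, became 0.05 and 0.11 without replicate 1 with EPZ-6438 or replicate 2 of Cal27. The causes were not tested. Of 90 values of the untreated comparisons, 7 moved beyond their counting interval and none changed sign. Members with few reads, such as BIK at 23 reads in SKN3, are limited by depth.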

Other observations

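Some other genes of the family, picked after their values were seen, also differed between the untreated lines. BCL2 was at 13.2 CPM in SKN3 and 4.63 CPM in BICR78 against 2.24 CPM in untreated Cal27, with ratios of 5.89 (95% interval 4.30 to 8.23) and 2.07 (1.44 to 3.01). The BH3-only gene HRK was at 18.2 CPM in BICR78, from 350 reads, against 1.19 CPM in Cal27, from 25 reads (ratio 15.3, 10.2 to 24.0), and had 1 read in the untreated labelled knockout. BAD was at 24.0 CPM in SKN3 against 93.1 CPM in Cal27 (ratio 0.258, 0.233 to 0.286). BCL2A1 had 63 reads in the untreated labelled knockout and 1 read in untreated Cal27, a ratio of 60.1 whose counting interval runs from 10.4 to 2411. It had 3 reads in SKN3 and 0 in BICR78. BOK was at 28.0 CPM in the untreated labelled knockout against 54.7 CPM in untreated Cal27 (ratio 0.512, 0.463 to 0.565), while the DMSO libraries of the labelled knockout held 63.3 and 65.4 CPM against 59.8 and 53.2 CPM. Each of these ratios compares single libraries and has no replicate check.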
